A study of Mus musculus with 4 samples.

Results

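Megakaryocyte-erythroid progenitors (MEP) from adult bone marrow were compared with those from fetal liver in wild-type mice, with 1 array for each source. MEP are the blood progenitors that give rise to red cells and to platelet-forming megakaryocytes. In the mouse fetus they expand in the liver, which makes most blood before the marrow takes over, and definitive red cells from either site carry adult-type globins. Fetal blood progenitors are also known for a growth programme of imprinted genes and of RNA-binding proteins that regulate the let-7 microRNAs, whereas adult progenitors are held in the marrow by receptors such as CXCR4. The fetal liver sample was MEP of C57BL/6 background at E14.5 (embryonic day), labelled wild type. The bone marrow sample was labelled wild-type MEP of adult age on the same background, with no age in weeks. The other 2 of the 4 arrays in the series held MEP of the same sources labelled Ezh2-null, lacking a histone methyltransferase of Polycomb repressive complex 2 (PRC2), and their source difference is given beside the wild-type one. That pair shares no array with the wild-type pair but differs from it in genotype as well. The labels do not say how MEP were isolated, how many animals were pooled, of which sex, or which part of Ezh2 was deleted.

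Genes entered the comparison when their brightest probe was well above background on at least 1 of the 2 wild-type arrays. This left 15374 of 31693 genes on the array. Of these, 11789 were measured on both arrays, 2159 on the bone marrow array alone and 1426 on the fetal liver array alone. Each level is the spot intensity of the gene's brightest probe, scaled between arrays, and each difference is relative to the median of all genes, so 0 on the log2 scale is the typical gene. Where a gene was not well above background on 1 array, the difference was taken against the lowest detectable signal there (19.3 in fetal liver, 16.6 in bone marrow) or the probe's own signal if higher, and is written as "at least". A difference of 2-fold or more is called higher or lower. With 1 array a group there is no replicate error and no test, so all differences are described by size alone. By this rule 3428 genes (22.3%) were higher in bone marrow, 927 of them as bounds, and 1341 (8.72%) were lower, 450 as bounds, so that 31.0% of genes were called in either direction. With normexp background correction 2044 genes were higher and 285 lower. Any list of genes below should be read against the shares of all genes. In the Ezh2-null pair 19.9% of 16682 genes were higher and 14.3% lower.

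The wild-type fetal liver array, on which all of these results rest, had the fewest probes well above background (39.0% of 39418, against 41.8% to 46.4% on the other arrays), and the median SD of log2 signal between spots of 1 probe was 0.127, against 0.0726 to 0.0912 elsewhere. The log2 signals of the bone marrow arrays correlated at 0.982 over 12880 probes, whereas every pair that held a fetal liver array, of either genotype, correlated at 0.915 to 0.937. The differences also followed the probe in both pairs of arrays, though by probe position the pairs did not run the same way. The wild-type median was 0.54 in the 1826 genes whose 60-base probe held 9 to 21 G or C bases and −0.42 in the 203 genes with 34 to 55, while the Ezh2-null pair went from 0.33 to −0.05 over nearly the same bins. By mean level the wild-type median went from −0.36 in the dimmest of 10 bins to 0.55 in bin 7 and −0.20 in the brightest, and the Ezh2-null median from −0.16 in bin 2 to 0.76 in bin 9. In 10 bins of probe start within the transcript, the wild-type median went from −0.29 in bin 2 to 0.21 in bin 9. It was −0.045 in bin 10. The Ezh2-null median went from 0.20 in bin 2 to −0.08 in bin 9 and −0.24 in bin 10. The part of these trends in any single result was not tested. Before centring, the median of all genes was −0.58 log2 with the scaling used. The share of calls that were higher was 71.9%. It was 29.1% with the same scaling left uncentred, 54.9% with the 75th percentile of all probes and 94.9% with spike-in scaling, which put the median of all genes at −0.58, −0.23 and 0.73. Directions below are relative to that median.

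**Figure D1:**
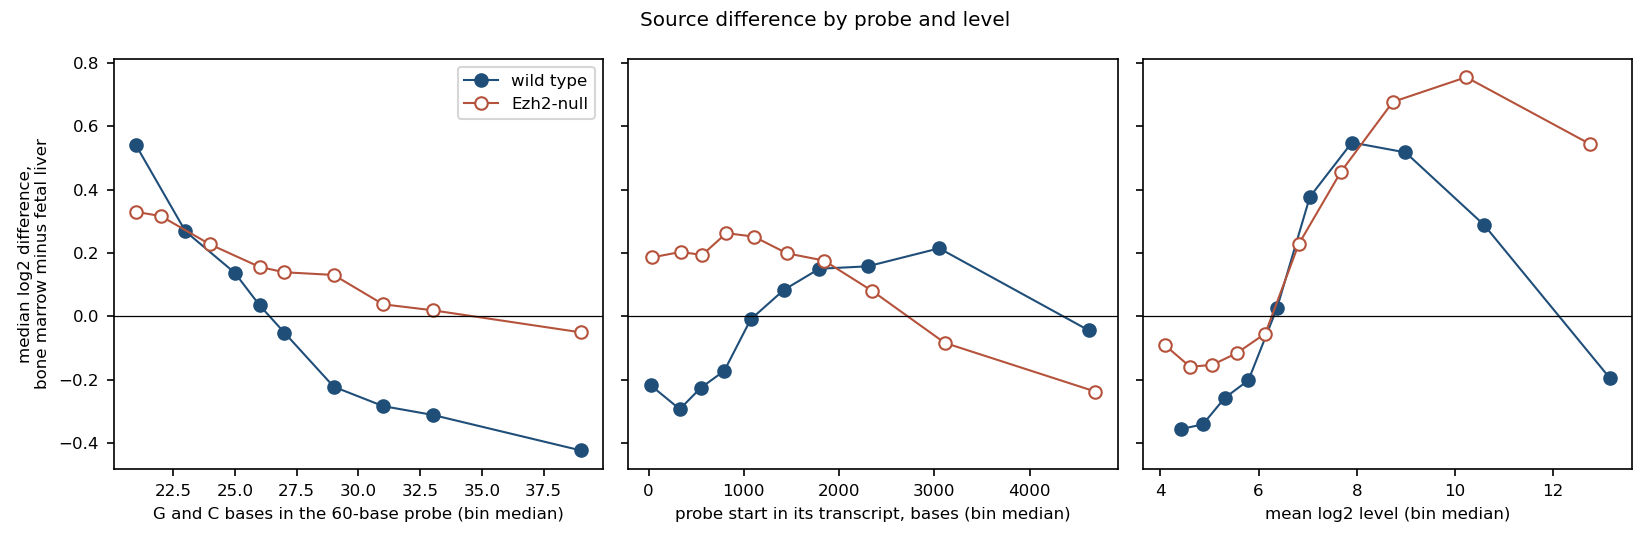
Median log2 difference between bone marrow and fetal liver (y axis, relative to the median of all genes) by the G and C bases of the probe, the position of the probe in its transcript and the mean log2 level (x axes), for genes measured on both arrays of a pair. Each point is a bin of genes; in wild type (filled) the median falls from 0.54 to −0.42 with probe G and C bases, in the Ezh2-null pair (open) from 0.33 to −0.05.

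Both wild-type samples carried most of the transcripts that define MEP. Gata1, the master erythroid and megakaryocytic regulator, read 10281 in fetal liver and 10478 in bone marrow. Klf1, the erythroid activator, read 2643 in fetal liver and 1580.4 in bone marrow. The erythropoietin receptor gene Epor read 1655 in fetal liver and 1169 in bone marrow. These differ by less than 2-fold. Of 15 defining MEP markers, 13 were measured, 12 of them on both arrays and Gata2 on the bone marrow array alone. Of the 13, 6 were higher in bone marrow and 0 lower. Higher were Car1, Gata2, Kit, Eng, Tal1 and Gfi1b, all described below except Eng, an endothelial and progenitor TGF-beta coreceptor that read 49.97 in fetal liver and 167 in bone marrow (3.33-fold higher). Cd34, which marks earlier and granulocytic progenitors, was not well above background on either array. Of 14 genes listed as markers that a standard MEP sort selects against, 5 were measured, with 1 lower in bone marrow (log2 −1.04) and 0 higher. Of the 5, Cd4, Ly6c1, Cd3e and Ptprc read between 19.1 and 130.2 on both arrays, though Ptprc (CD45) is not specific to the cells such a sort removes. The fifth, Itgam, had a signal of 105022 in fetal liver and 80859 in bone marrow on a probe that begins with a CA-dinucleotide repeat, while its other 2 probes read 65.9 and 29.3 in fetal liver and 47.4 and 25.7 in bone marrow.

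Among the lists of other cell types, the hepatocyte list had the most members called between the sources. Hepatocyte genes, the products of the liver parenchyma around the fetal progenitors, were lower in bone marrow for 11 of 13 measured members, 8 of them as bounds (median −1.71), and none was higher. The count was 5 (median −0.77) with normexp, 6 with a pseudocount of 20 or with spike-in scaling, and 2 of the 5 members detected on both arrays. In the Ezh2-null pair 2 of 15 were lower and 2 higher (median −0.31). Their summed level was 1936.97 in fetal liver and 1338.45 in bone marrow. The apolipoprotein gene Apoa2 read 419 in fetal liver and 52.7 in bone marrow. The carboxypeptidase gene Cpb2 read 162 in fetal liver and was not well above background in bone marrow (12.6). Dlk1, which fetal hepatoblasts also express, is counted in this list and in the fetal growth programme. Albumin (Alb), alpha-fetoprotein (Afp) and transthyretin (Ttr), the most abundant hepatocyte transcripts, were not well above background on either wild-type array. Macrophage genes (1 higher and 1 lower of 10 measured), endothelial and stromal genes (0 and 0 of 9), granulocyte and monocyte genes (1 and 1 of 11) and basophil, eosinophil and mast cell genes (2 and 2 of 8) had medians between −0.56 and −0.19. In a bulk RNA sample, fewer cells of a type and less RNA per cell cannot be told apart. None of 9 sex-linked genes was well above background on a wild-type array.

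**Figure D2:**
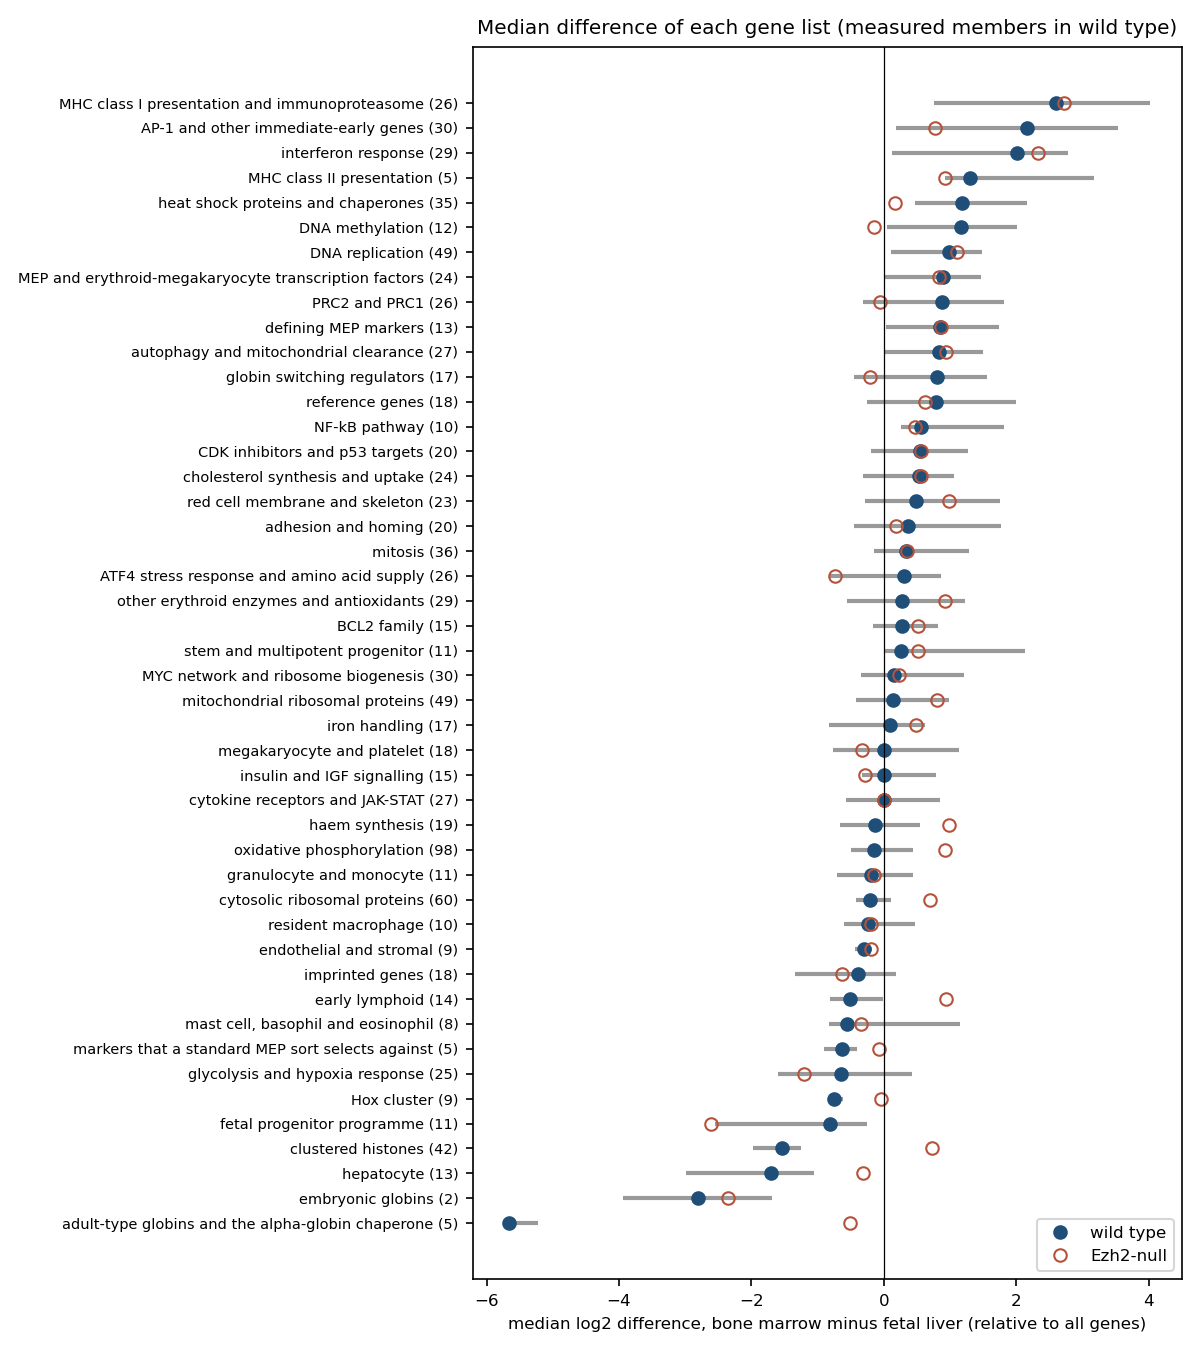
Median log2 difference between bone marrow and fetal liver (x axis, relative to the median of all genes) of each gene list (y axis), in wild type (filled) and in the Ezh2-null pair (open). Bars span the middle 50% of the measured members in wild type; MHC class I (2.60), AP-1 genes (2.17) and interferon genes (2.01) lie highest and the adult-type globins (−5.67) lowest.

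Part of the fetal growth programme was lower in bone marrow in both pairs of arrays. Of 20 genes in this list, 11 were measured (median −0.82). In bone marrow 5 were lower (45.5%, against 8.72% of all genes), 4 of them as bounds, none was higher and 6 were within 2-fold. With the comparison held to genes detected on both arrays and centred on them, 2 members remained and none was lower. In the Ezh2-null pair 7 of 12 were lower and 1 higher (median −2.62). The imprinted RNA gene H19, a growth regulator expressed from the maternal allele, read 1577 in fetal liver and was not well above background in bone marrow (15.6), at least 94.96-fold lower by a probe at mm9 chr7:149761492-149761551. It was at least 108-fold lower in the Ezh2-null pair, and a second, dim probe read 29.3 in fetal liver and 19.2 in bone marrow. Igf2bp1, whose protein binds and stabilises growth-related mRNAs, read 266 in fetal liver and was not well above background in bone marrow (4.08) (at least 16.01-fold lower). The Notch-related membrane protein gene Dlk1, paternally expressed, read 138 in fetal liver and was not well above background in bone marrow (9.86) (at least 8.31-fold lower). All of these 3 differences were read in wild type by a probe detected in fetal liver alone. In the Ezh2-null pair Igf2bp1 was at least 10.7-fold lower and Dlk1 17.7-fold lower. The retrotransposon-derived imprinted gene Peg10 read 67.9 in fetal liver and was not well above background in bone marrow (3.42) (at least 4.09-fold lower, and at least 5.92-fold lower in the Ezh2-null pair). Hmga1, a chromatin architectural protein gene that is also expressed in adult progenitors, read 14914 in fetal liver and 7319 in bone marrow (2.04-fold lower). Lin28b, whose protein blocks let-7 maturation and marks fetal haematopoiesis, was not well above background in wild-type fetal liver (17.4) and read 21.7 in bone marrow, so wild type gave no difference, while the Ezh2-null pair gave at least 6.37-fold lower. Of the let-7 targets Hmga2 and Arid3a, neither was well above background by any probe in wild-type fetal liver. In wild-type bone marrow 1 Hmga2 probe was (18.5, against 4.85 in fetal liver), near the lowest detectable signal there.

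Imprinted genes did not move as a class. Of 18 measured, 5 were lower in bone marrow, 4 were higher and the median was −0.39 (0.32 with spike-in scaling, and 0.025 over genes detected on both arrays). Beside H19, Dlk1 and Peg10, the lower ones were Snrpn and Ube3a of the Prader-Willi and Angelman region. Snrpn read 169.99 in fetal liver and was not well above background in bone marrow (5.29) (at least 10.2-fold lower), and was at least 9.59-fold lower in the Ezh2-null pair. The higher ones included Gnas, the stimulatory G protein alpha subunit gene, which read 316 in fetal liver and 1399 in bone marrow (4.43-fold higher). By the other 2 Gnas probes measured on both arrays the log2 differences were 0.21 and −0.51. Phlda2, a placental growth restrictor, was not well above background in fetal liver (17.1) and read 148 in bone marrow (at least 7.67-fold higher). All 5 that were lower were called lower in the Ezh2-null pair, and of the 4 that were higher, Gnas and Phlda2 were.

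Among genes that read above 10000 in fetal liver, the 3 largest falls were those of the globins Hbb-bt, Hba-a1 and Hba-a2. The alpha-globin gene Hba-a1 read 32859.6 in fetal liver and 647 in bone marrow, 50.8-fold lower, by a probe at mm9 chr11:32183955-32184014. Its near-identical copy Hba-a2, whose signal cannot be separated from it with certainty, read 33375 in fetal liver and 895 in bone marrow (37.3-fold lower). The adult beta-globin gene Hbb-bt read 39877 in fetal liver and 293 in bone marrow (136-fold lower). The minor adult beta-globin gene Hbb-b2 read 1509.7 in fetal liver and 28.7 in bone marrow (52.7-fold lower). Globins were thus among the brightest transcripts of the fetal sample and of modest level in the adult one. The differences were far smaller in the Ezh2-null pair, where Hba-a1 was 1.19-fold lower (log2 −0.25), Hba-a2 1.42-fold lower and Hbb-bt 3.15-fold lower. Ahsp, the chaperone of free alpha-globin, read 8806 in fetal liver and 4966 in bone marrow and was 1.77-fold lower in wild type but 4.82-fold higher in the Ezh2-null pair. The embryonic beta-like globin gene Hbb-bh1 read 553 in fetal liver and was not well above background in bone marrow (6.18) (at least 33.3-fold lower), and was at least 149-fold lower in the Ezh2-null pair. Hbb-bh2 read 68.3 in fetal liver and 46.3 in bone marrow, a difference under 2-fold, and the other 2 embryonic globins on the array were not well above background on either wild-type array.

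Regulators of the switch from embryonic and fetal to adult globin were higher in bone marrow for 8 of 17 measured, with 1 lower (median 0.80). With normexp 5 were higher (median 0.69), and 4 with the scaling left uncentred (median 0.22). Bcl11a, the repressor of embryonic and fetal globins, read 146 in fetal liver and 334 in bone marrow (2.29-fold higher). The histone demethylase gene Kdm1a (LSD1), its cofactor, read 53.9 in fetal liver and 344 in bone marrow (6.38-fold higher). Myb, which keeps progenitors proliferating, read 207 in fetal liver and 611 in bone marrow (2.95-fold higher). Only 2 of these 8, Ldb1 and Mta2, were also called higher in the Ezh2-null pair, whereas Myb was 5.22-fold lower and Kdm1a 2.72-fold lower there. Mta2, a subunit of the NuRD repressor complex, read 935 in fetal liver and 4345 in bone marrow (4.65-fold higher, and 6.43-fold higher in the Ezh2-null pair). Nr2c2, a nuclear receptor gene that binds the embryonic globin promoters, read 189 in fetal liver and 48.1 in bone marrow (3.94-fold lower).

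**Figure D3:**
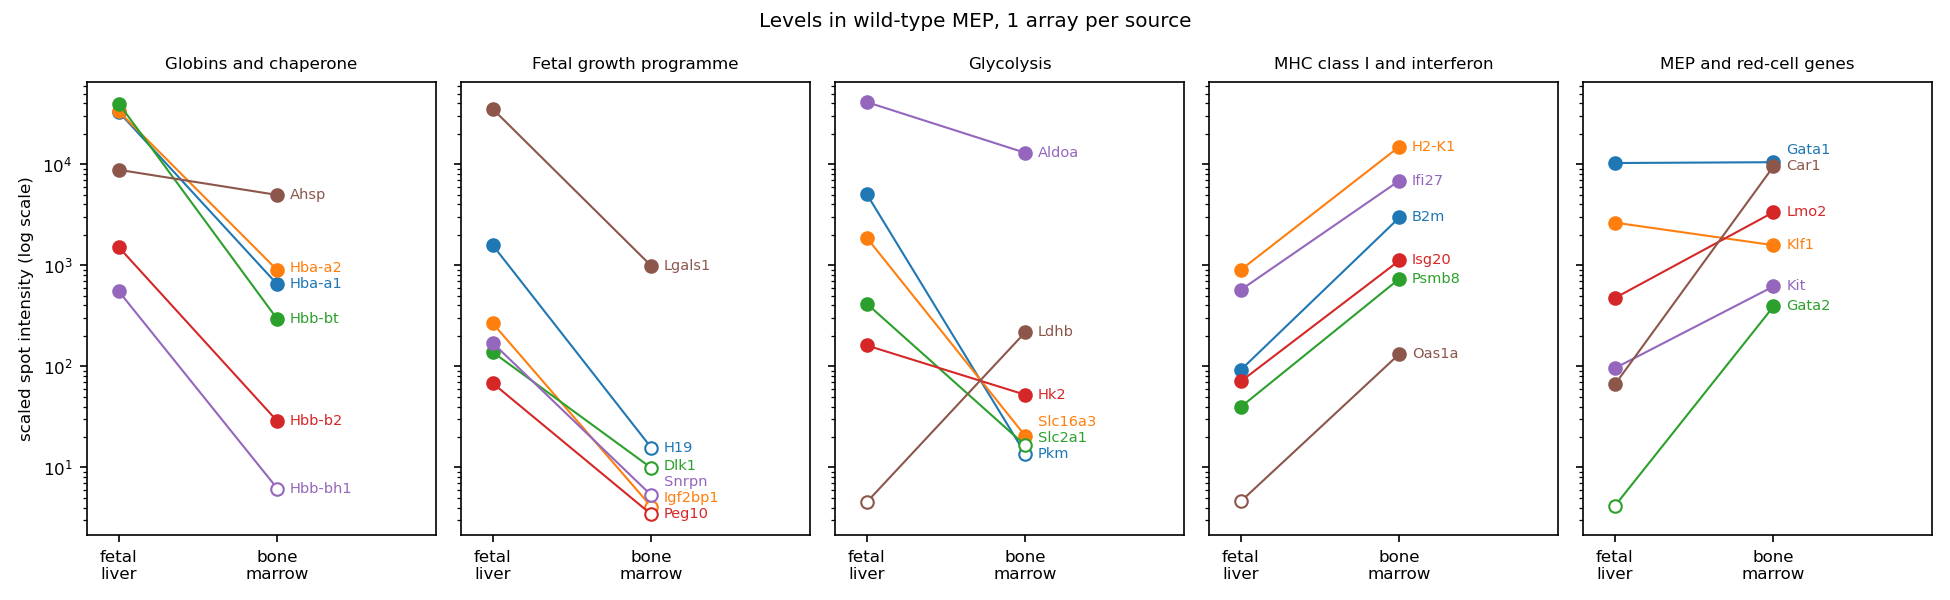
Scaled spot intensity (y axis, log scale) of named genes in wild-type fetal liver and wild-type bone marrow, 1 array each, with a line joining the 2 values of a gene; open points are not well above background. Hba-a1 goes from 32860 to 647, H19 from 1577 to below detection, B2m from 92.5 to 2974 and Car1 from 66.3 to 9521.

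Other red-cell genes were called in both directions. Car1, the erythroid carbonic anhydrase gene, rose more than any other gene measured on both arrays, as it read 66.3 in fetal liver and 9521 in bone marrow, 144-fold higher, by a probe at mm9 chr3:14767486-14767545, and it was 60.5-fold higher in the Ezh2-null pair. Car2, another carbonic anhydrase gene, read 467 in fetal liver and 4839.9 in bone marrow (10.4-fold higher, and 8.09-fold higher). Among other erythroid enzymes and antioxidants 9 of 29 were higher and 1 lower (5 higher with the scaling left uncentred, 15 with spike-in scaling), the lower one being the glutathione transferase gene Mgst3, which read 2432 in fetal liver and 362 in bone marrow (6.71-fold lower). Of 19 haem genes, 3 were higher and 3 lower (median −0.14, and 0.63 with spike-in scaling). The erythroid first enzyme Alas2 read 169 in fetal liver and 48.1 in bone marrow (3.51-fold lower). Its housekeeping relative Alas1 read 78.04 in fetal liver and 430.2 in bone marrow (5.51-fold higher). The pair of first-step genes thus went opposite ways in wild type, while in the Ezh2-null pair Alas2 was 1.96-fold higher and Alas1 1.45-fold higher, both under 2-fold. A second Alas1 probe went the other way, from 225 to 91.7. The mitochondrial iron importer gene Slc25a37 read 251 in fetal liver and 88.1 in bone marrow (2.85-fold lower, and 2.13-fold lower in the Ezh2-null pair), while its second probe read 31.9 and 33.6.

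Red-cell membrane genes were split. Of 23 measured, 9 were higher in bone marrow and 3 lower. The anion exchanger gene Slc4a1 (band 3) read 458 in fetal liver and 58.4 in bone marrow (7.84-fold lower). The blood-group adhesion gene Icam4 read 2572 in fetal liver and 659.96 in bone marrow (3.90-fold lower). Both mark the later, haemoglobinising stages, and both were under 2-fold in the Ezh2-null pair. On the higher side, stomatin (Stom), a lipid-raft protein gene, read 74.8 in fetal liver and 663 in bone marrow (8.87-fold higher). Cd47, the "do not eat me" signal to macrophages, read 429 in fetal liver and 2684 in bone marrow (6.26-fold higher, and 4.50-fold higher in the Ezh2-null pair). The water channel gene Aqp1 read 3541 in fetal liver and 16265 in bone marrow (4.59-fold higher, and 10.4-fold higher). Iron-handling genes were called in 2 of 17 higher and 3 lower. The iron exporter gene Slc40a1 read 34.8 in fetal liver and 135 in bone marrow (3.89-fold higher), and Tfr2, the iron sensor that associates with the erythropoietin receptor, read 834 in fetal liver and 2207 in bone marrow (2.65-fold higher).

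Genes of MHC class I antigen presentation had the highest wild-type median of the lists. MHC class I molecules display peptides cut by the immunoproteasome and loaded in the endoplasmic reticulum, and the genes respond to interferons and the activator NLRC5. Of 30 genes, 26 were measured, 19 were higher in bone marrow and 1 lower (median 2.60, and 2.55 over the 21 measured on both arrays). In the Ezh2-null pair 20 of 26 were higher and 3 lower (median 2.72), and 18 genes were higher in both pairs. With normexp 15 were higher in wild type (median 1.49). The light chain gene B2m read 92.5 in fetal liver and 2974 in bone marrow, 32.2-fold higher, by a probe at mm9 chr2:121978401-121978460, and was 26.4-fold higher in the Ezh2-null pair. The classical heavy chain gene H2-K1 read 903 in fetal liver and 14976 in bone marrow (16.6-fold higher). The non-classical H2-T23 (Qa-1) read 79.4 in fetal liver and 1689.98 in bone marrow (21.3-fold higher). Heavy chain genes are close copies of one another, so a probe named for H2-K1, H2-D1 or an H2-Q gene may read several of them. The immunoproteasome subunit gene Psmb8 read 39.7 in fetal liver and 737 in bone marrow (18.6-fold higher). Psmb9, another such subunit, was not well above background in fetal liver (11.9) and read 2211 in bone marrow (at least 115-fold higher). Their partner Psmb10 went the other way, as it read 4538 in fetal liver and 1633 in bone marrow (2.78-fold lower, and 1.53-fold lower in the Ezh2-null pair).

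The peptide transporter and loading genes were higher as well. Tap2 of the peptide transporter read 79.6 in fetal liver and 573 in bone marrow (7.20-fold higher). Tapasin (Tapbp), which bridges transporter and heavy chain, read 46.2 in fetal liver and 470.3 in bone marrow (10.2-fold higher). Nlrc5, the class I transactivator, was not well above background in fetal liver (12.3) and read 195 in bone marrow (at least 10.1-fold higher, and 14.7-fold higher in the Ezh2-null pair), while a second probe read 29.99 and 34.3. MHC class II genes were few: of 5 measured, 3 were higher and none lower, with H2-DMa, a class II peptide exchanger, going from 36.9 to 334 (9.05-fold higher). The class II activator gene Ciita read 287 in fetal liver and 238 in bone marrow, a difference under 2-fold.

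Interferon-response genes followed the same direction. Of 42, 29 were measured, 18 were higher and none lower, 8 as bounds (median 2.01, and 2.29 over the 17 measured on both arrays). In the Ezh2-null pair 20 of 30 were higher and 1 lower (median 2.33), and 17 genes were higher in both. With normexp 12 were higher in wild type (median 0.77), and with a pseudocount of 20 there were 17 (median 1.34). The exonuclease gene Isg20 read 71.1 in fetal liver and 1116 in bone marrow (15.7-fold higher, and 54.2-fold higher). Ifi27, a mitochondrial interferon-induced gene, read 572 in fetal liver and 6891 in bone marrow (12.05-fold higher, and 29.2-fold higher). Irf1, an interferon-induced activator of MHC class I genes, was not well above background in fetal liver (12.01) and read 587 in bone marrow (at least 30.4-fold higher, and at least 33.7-fold higher). A second Irf1 probe read 68.7 in fetal liver and 46.6 in bone marrow, so the probes of this gene disagreed. The ubiquitin-like modifier gene Isg15 read 33.3 in fetal liver and 162 in bone marrow (4.88-fold higher). The RNA sensor gene Oas1a was not well above background in fetal liver (4.62) and read 133 in bone marrow (at least 6.88-fold higher). Bst2, which tethers budding viruses, read 31.4 in fetal liver and 302 in bone marrow (9.64-fold higher) but was 2.82-fold lower in the Ezh2-null pair. Ifit2, Rsad2 and Irf7, commonly used interferon readouts, were not among the called genes, with log2 differences of −0.59, −0.53 and 0.12.

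Promoter sequences are shown for 4 of these genes because they hold the motif that interferon-activated factors are known to bind, the core of the interferon-stimulated response element, GAAA followed by 2 bases of any kind and GAAA again, on either strand. In the 250 bases before the RefSeq start site (GRCm38.p6), the motif was found in 9 of 22 measured interferon genes with a sequence (40.9%) and 3 of 20 measured MHC class I genes (15%), against 277 of 8987 genes compared (3.08%). It was found in 7 of the 15 interferon genes called higher. A match describes the letters only. Each line below is 100 bases, 5′ to 3′ toward the start site on the gene's strand, with matches on either strand in capitals. The windows lie at chr2:122147478-122147577 (B2m), chr17:36032796-36032895 (H2-T23), chr4:156200855-156200954 (Isg15) and chr5:120907526-120907625 (Oas1a).
B2m: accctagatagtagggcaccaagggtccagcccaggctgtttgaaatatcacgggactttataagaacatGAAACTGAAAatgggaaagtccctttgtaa
H2-T23: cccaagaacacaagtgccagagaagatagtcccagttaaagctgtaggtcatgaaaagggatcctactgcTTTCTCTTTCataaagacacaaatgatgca
Isg15: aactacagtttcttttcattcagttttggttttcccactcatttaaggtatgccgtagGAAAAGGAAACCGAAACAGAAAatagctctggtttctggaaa
Oas1a: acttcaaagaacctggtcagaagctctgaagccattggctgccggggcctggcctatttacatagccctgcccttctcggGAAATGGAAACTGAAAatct
The B2m match is single, the H2-T23 match reads on the opposite strand, and in Isg15 and Oas1a overlapping matches (3 and 2) run together within the capitals.

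Immediate-early genes, which respond within minutes to growth factors and stress, including cell isolation, were also higher in bone marrow by count. Of 37, 30 were measured, 18 were higher, 9 of them as bounds, and 1 was lower (median 2.17, and 1.22 over the 18 measured on both). With normexp 14 were higher and none lower (median 0.72), and a pseudocount of 20 gave a median of 1.42. The mRNA-destabilising protein gene Zfp36 read 22.7 in fetal liver and 1641 in bone marrow (72.3-fold higher, and at least 67.8-fold higher in the Ezh2-null pair). The MAP kinase phosphatase gene Dusp1 read 313 in fetal liver and 9626 in bone marrow (30.8-fold higher, and 9.77-fold higher). Fos, a subunit of the AP-1 factor, was not well above background in fetal liver (4.28) and read 1467 in bone marrow (at least 76.01-fold higher, and at least 14.1-fold higher). These 3 were higher in both pairs, but others were not. Fosb read 161 in fetal liver and 7983 in bone marrow (49.5-fold higher) and was 1.01-fold higher in the Ezh2-null pair. Jund read 3132 in fetal liver and 26269 in bone marrow (8.39-fold higher) and was 1.19-fold lower there. The quiescence-associated factor gene Klf2 read 167 in fetal liver and 1962 in bone marrow (11.7-fold higher, and 11.8-fold higher). Over the list the Ezh2-null median was 0.78, with 14 of 31 higher and 1 lower. Of 10 measured NF-kB genes 4 were higher and none lower, among them the inhibitor gene Nfkbia, which was not well above background in fetal liver (13.1) and read 258 in bone marrow (at least 13.4-fold higher). How long each sample took from tissue to lysis is not given in the labels, and its part was not tested.

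The list of glycolysis and hypoxia-response genes ran against the general direction. Of 25 measured, 11 were lower in bone marrow (44%, against 8.72% of all genes) and 4 higher (median −0.64). The 11 lower ones were glycolytic enzymes and sugar or lactate transporters. Among members outside glycolysis, Egln3, Car9, Bnip3 and Ero1a were not called in wild type (log2 −0.13, 0.028, 0.42 and 0.42). In the Ezh2-null pair 17 of 29 were lower and 4 higher (median −1.21), and 8 genes were lower in both. The wild-type count of lower genes was 6 (median −0.40) with normexp and 3 (median 0.12) with spike-in scaling, and without the background filter the median was 0.12. The glycolytic enzymes and sugar transporters here are classical targets of the hypoxia-inducible factors. The lactate exporter gene Slc16a3 (MCT4) read 1869 in fetal liver and 20.4 in bone marrow (91.5-fold lower, and 25.2-fold lower in the Ezh2-null pair). The glucose importer gene Slc2a1 (GLUT1), also a red-cell membrane gene, read 416 in fetal liver and was not well above background in bone marrow (16.5) (at least 25.1-fold lower, and 70.7-fold lower). Pyruvate kinase (Pkm), which makes pyruvate in the last step, read 5040.3 in fetal liver and was not well above background in bone marrow (13.6), at least 304-fold lower, by its only probe at mm9 chr9:59526867-59526926, which starts 1876 bases into the transcript, and was 44.4-fold lower in the Ezh2-null pair. These 3 were well above background in the fetal sample and near or below the lowest detectable signal in the adult one.

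Most of the remaining glycolytic steps fell by less. Hexokinase 2 (Hk2) read 161 in fetal liver and 52.3 in bone marrow (3.08-fold lower). Enolase 1 (Eno1) read 10529.5 in fetal liver and 3174 in bone marrow (3.32-fold lower), as did its retrocopy Eno1b, which shares sequence with it and read 9422 in fetal liver and 2521 in bone marrow (3.74-fold lower). Aldolase A (Aldoa) read 41196 in fetal liver and 12963 in bone marrow (3.18-fold lower). Phosphoglycerate mutase (Pgam1) read 15239.9 in fetal liver and 5019 in bone marrow (3.04-fold lower). Hk2 was 21.3-fold lower in the Ezh2-null pair, Eno1 4.24-fold lower, Aldoa 3.13-fold lower and Pgam1 5.20-fold lower. Gapdh, often used as a reference gene, read 47641 in fetal liver and 22799 in bone marrow (2.09-fold lower, and 1.62-fold lower in the Ezh2-null pair). A few isozymes went the other way. Lactate dehydrogenase B (Ldhb), the aerobic form, was not well above background in fetal liver (4.54) and read 218 in bone marrow (at least 11.3-fold higher, and at least 19.5-fold higher), while the A form Ldha read 58049 in fetal liver and 33454 in bone marrow (1.74-fold lower, and 2.05-fold lower). The muscle-type phosphofructokinase gene Pfkm read 88.8 in fetal liver and 335 in bone marrow (3.77-fold higher, and 6.08-fold higher), while the liver type Pfkl read 1942 in fetal liver and 859 in bone marrow (2.26-fold lower, and 1.77-fold lower). Hk1 read 3628 in fetal liver and 9427 in bone marrow (2.60-fold higher). Adenylate kinase 4 (Ak4), a mitochondrial enzyme known as hypoxia-induced that was not in the list, read 350.2 in fetal liver and was not well above background in bone marrow (14.4) (at least 21.1-fold lower, and at least 66.1-fold lower).

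The promoters of 4 of these genes are shown for the core that hypoxia-inducible factors are known to bind, ACGTG or GCGTG on either strand. It was present in the 250 bases before the start of 20 of 22 measured glycolysis and hypoxia genes with a sequence (90.9%) and in 10 of the 11 called lower, against 57.2% of the 8987 genes compared, so this short motif is common. The lines are as above, at chr11:120948967-120949066 (Slc16a3), chr4:119108634-119108733 (Slc2a1), chr4:101419178-101419277 (Ak4) and chr19:41911708-41911807 (Pgam1) of GRCm38.p6.
Slc16a3: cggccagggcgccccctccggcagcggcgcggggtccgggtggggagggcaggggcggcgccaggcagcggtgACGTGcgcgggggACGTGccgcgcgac
Slc2a1: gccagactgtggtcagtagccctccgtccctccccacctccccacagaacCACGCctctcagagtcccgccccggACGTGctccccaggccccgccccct
Ak4: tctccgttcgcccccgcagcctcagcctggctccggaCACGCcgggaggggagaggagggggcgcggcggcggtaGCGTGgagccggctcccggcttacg
Pgam1: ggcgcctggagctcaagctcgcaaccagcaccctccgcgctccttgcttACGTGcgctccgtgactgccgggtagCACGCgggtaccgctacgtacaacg
Each window holds 2 matches, both on the gene's strand in Slc16a3 and 1 on each strand in the other 3.

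Genes of the ATF4 stress response, which supplies amino acids when translation is restrained, were called in both directions. Of 26 measured, 5 were lower (19.2%, against 8.72% of all genes) and 4 higher (15.4%, against 22.3%), with a median of 0.31. All 5 that were lower in wild type were lower in the Ezh2-null pair, where 13 of 30 were lower and 2 higher (median −0.74). The pseudokinase gene Trib3 read 377 in fetal liver and was not well above background in bone marrow (3.41) (at least 22.7-fold lower, and at least 322-fold lower). Slc6a9, the glycine importer that feeds haem synthesis, read 169.9 in fetal liver and was not well above background in bone marrow (5.74) (at least 10.2-fold lower, and 3.11-fold lower). Pycr1 of proline synthesis read 109.6 in fetal liver and was not well above background in bone marrow (10.7) (at least 6.60-fold lower, and 3.13-fold lower). None of the 4 higher ones was higher in the Ezh2-null pair. The mTORC1 inhibitor gene Ddit4 read 292 in fetal liver and 2790.4 in bone marrow (9.57-fold higher) but was 2.75-fold lower there, and Sesn2, another mTORC1 inhibitor, read 28.6 in fetal liver and 127 in bone marrow (4.42-fold higher) but was at least 12.6-fold lower. Atf4 itself read 17894 in fetal liver and 30757 in bone marrow, a difference under 2-fold.

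Transcription factors of the MEP state were higher in bone marrow for 10 of 24 measured and lower for 1 (median 0.90, and 0.84 in the Ezh2-null pair). With the scaling left uncentred 5 were higher (median 0.32). Gata2, which precedes Gata1 in early progenitors, was not well above background in fetal liver (4.16) and read 391 in bone marrow (at least 20.3-fold higher, and 3.35-fold higher). Its complex partner Lmo2 read 475 in fetal liver and 3354 in bone marrow (7.06-fold higher, and 6.48-fold higher). Tal1 of the same complex read 292 in fetal liver and 792 in bone marrow (2.71-fold higher, and 2.15-fold higher). The repressor gene Gfi1b read 1156 in fetal liver and 2618 in bone marrow (2.26-fold higher, and 2.18-fold higher). These 4 early factors were thus higher in both pairs, beside Gata1 at nearly equal levels. Stat5b, which transmits erythropoietin and thrombopoietin signals, read 711 in fetal liver and 2872 in bone marrow (4.04-fold higher), under 2-fold in the Ezh2-null pair. Lyl1, a relative of Tal1, read 9550.3 in fetal liver and 3814 in bone marrow (2.50-fold lower).

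Cytokine receptors and homing genes varied singly. The stem cell factor receptor gene Kit read 96.04 in fetal liver and 618 in bone marrow (6.44-fold higher) but was 1.14-fold higher in the Ezh2-null pair. Ifngr1, the ligand-binding chain of the interferon-gamma receptor, read 105 in fetal liver and 784 in bone marrow (7.45-fold higher, and 3.02-fold higher). The interleukin-3 receptor gene Il3ra read 149.97 in fetal liver and 48.8 in bone marrow (3.07-fold lower). Over 27 cytokine and JAK-STAT genes the median was 0.00, with 7 higher and 1 lower. Cxcr4, the receptor that holds progenitors in the marrow, was not well above background in fetal liver (9.98) and read 407 in bone marrow (at least 21.1-fold higher, and 18.1-fold higher). Itga4, the alpha chain of the VLA-4 integrin, read 90.04 in fetal liver and was not well above background in bone marrow (13.3) (at least 5.42-fold lower, and at least 29.2-fold lower). Itga6, a laminin receptor chain, read 119.9 in fetal liver and 33.6 in bone marrow (3.57-fold lower, and 7.45-fold lower). These 3 homing genes kept their direction in both pairs.

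Megakaryocyte and platelet genes were at low levels and split. Of 38, 18 were measured, 6 were higher (33.3%, against 22.3% of all genes) and 4 lower (22.2%, against 8.72%), with a median of 0.01. In the Ezh2-null pair 4 of 22 were higher and 8 lower (median −0.33). Platelet factor 4 (Pf4) read 55.5 in fetal liver and 198 in bone marrow (3.56-fold higher, and 9.29-fold higher in the Ezh2-null pair). The granule proteoglycan gene Srgn was not well above background in fetal liver (7.33) and read 344 in bone marrow (at least 17.8-fold higher, and 6.66-fold higher). The platelet receptor gene Treml1 read 202 in fetal liver and was not well above background in bone marrow (13.9) (at least 12.2-fold lower, and 3.97-fold lower). Rab27b, which sorts platelet granules, read 122 in fetal liver and 19.7 in bone marrow (6.20-fold lower, and at least 1.49-fold lower), though its second probe read 28.2 and 25.1. Of the early lymphoid genes, 14 were measured with 2 higher and 3 lower. The template-independent polymerase gene Dntt read 34.97 in fetal liver and 114 in bone marrow (3.27-fold higher, and 75.9-fold higher). Vpreb1, the surrogate light chain gene, read 91.5 in fetal liver and was not well above background in bone marrow (15.9) (at least 5.51-fold lower) but was at least 251-fold higher in the Ezh2-null pair.

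DNA replication genes were higher in bone marrow for 24 of 49 measured (49.0%, against 22.3% of all genes) and lower for 3 (median 0.98, and 1.10 in the Ezh2-null pair). With the scaling left uncentred 12 were higher (median 0.40). The sliding clamp gene Pcna read 488 in fetal liver and 3174 in bone marrow (6.50-fold higher, and 16.1-fold higher). The GINS helicase subunit gene Gins4 read 62.6 in fetal liver and 644 in bone marrow (10.3-fold higher, and 2.54-fold higher). Chaf1b, which loads histones behind the fork, read 141 in fetal liver and 1079.8 in bone marrow (7.68-fold higher, and 2.47-fold higher). In all 15 replication genes were higher in both pairs and 2, Rfc1 and Orc3, lower in both. Timeless, a fork-protection gene outside the list, read 146 in fetal liver and 2925 in bone marrow (19.97-fold higher, and 9.64-fold higher). Mitosis genes stood nearer the background, with 13 of 36 higher and 2 lower (median 0.33), and with the scaling left uncentred 4 were higher (median −0.18). The spindle checkpoint kinase gene Bub1b read 23.7 in fetal liver and 187 in bone marrow (7.86-fold higher). Mki67, the proliferation marker, read 125 in fetal liver and 313 in bone marrow (2.50-fold higher) but was 6.86-fold lower in the Ezh2-null pair, and its second probe fell from 86.3 to 44.8 in wild type. The G1 inhibitor gene Cdkn2c (p18) read 43.3 in fetal liver and 361 in bone marrow (8.34-fold higher, and 38.2-fold higher).

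Histone genes went against the replication genes. Most belong to clusters that are expressed in S phase, and their mRNAs end in a stem-loop without a poly(A) tail. Of 49, 42 were measured, 33 were lower in bone marrow and 3 higher (median −1.54). With spike-in scaling 13 were lower and 4 higher (median −0.78). In the Ezh2-null pair 2 of 42 were lower and 11 higher (median 0.72), and only 1 gene, H2bc8, was lower in both. H4c4 read 28883 in fetal liver and 5842 in bone marrow (4.94-fold lower, and 1.85-fold higher). H3c8 read 1159 in fetal liver and 123 in bone marrow (9.42-fold lower, and 2.49-fold higher). H2bc4, by contrast, read 22.5 in fetal liver and 889 in bone marrow (39.6-fold higher, and at least 26.8-fold higher). The linker histone gene H1f2 read 233 in fetal liver and 4215 in bone marrow (18.1-fold higher, and 6.73-fold higher). Histone genes of 1 type are near-identical, so single members are uncertain. Their probes held a median of 30.5 G or C bases, on the side where the wild-type median of all genes was below 0, and with the trend on probe G and C bases removed the list stood at −1.25.

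**Figure D4:**
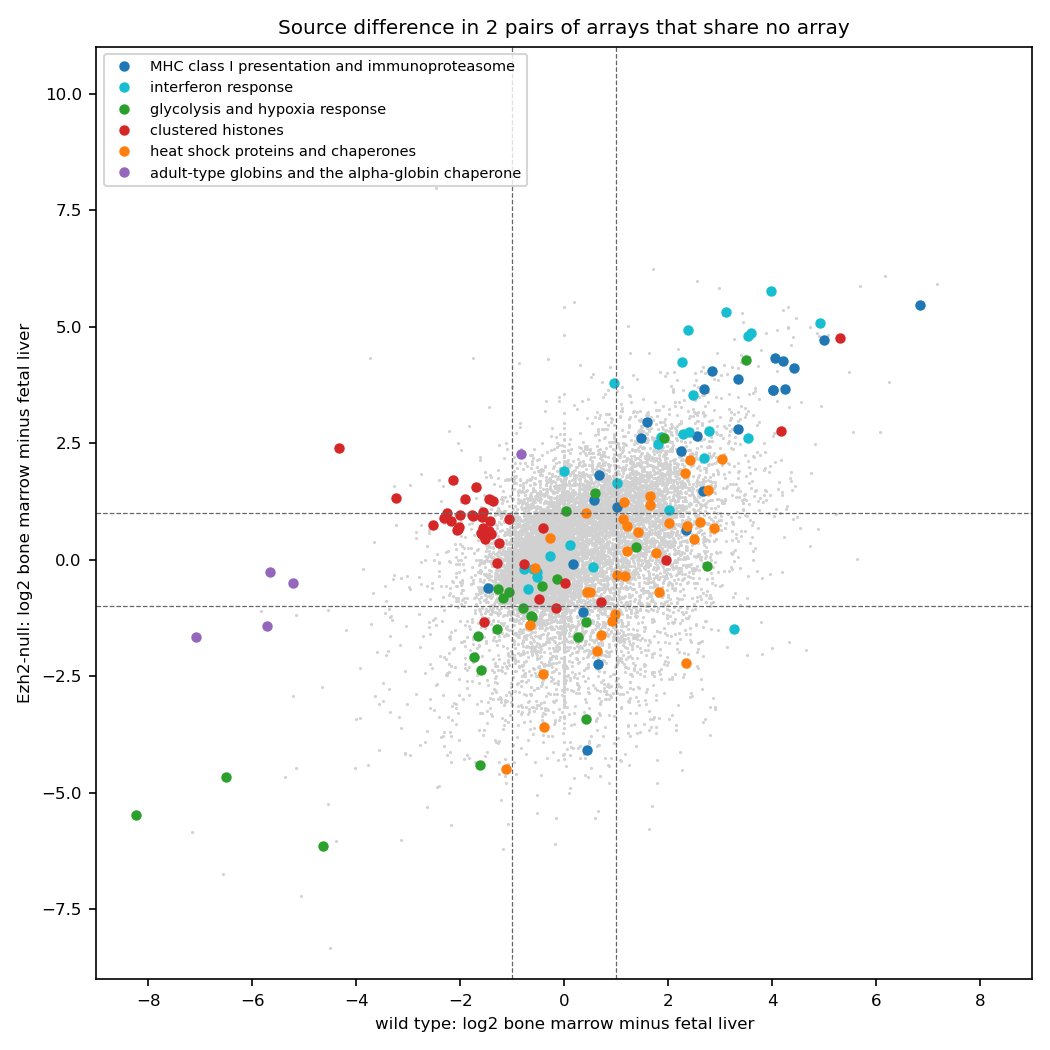
Log2 difference between bone marrow and fetal liver in the Ezh2-null pair (y axis) against the wild-type pair (x axis) for members of 6 lists, with all genes compared in both pairs in grey and dashed lines at 2-fold. In both pairs 18 MHC class I genes lie above 2-fold and 8 glycolysis genes below it; most clustered histones and all 5 globin and chaperone genes lie below 0 in wild type, with histones mostly above 0 in the Ezh2-null pair.

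Chaperone genes gave unlike counts in the 2 pairs, a difference that was not tested. Of 35 heat shock and chaperone genes measured, 21 were higher in wild-type bone marrow and 1 lower (median 1.18), against 7 higher and 11 lower of 36 in the Ezh2-null pair (median 0.16). Among the highest were 2 subunits of the CCT chaperonin, which folds actin and tubulin. Cct8 read 142 in fetal liver and 1047 in bone marrow (7.36-fold higher, and 1.59-fold higher). Tcp1 read 217 in fetal liver and 1321 in bone marrow (6.08-fold higher, and 1.76-fold higher). The Hsp70 cofactor gene Bag1, the highest of the list, read 875 in fetal liver and 7214 in bone marrow (8.24-fold higher, and 4.47-fold higher). Hsp90aa1, the stress-inducible Hsp90 gene, read 368 in fetal liver and 168 in bone marrow (2.18-fold lower, and 22.3-fold lower).

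Chromatin regulators were higher more often in wild type than in the Ezh2-null pair by count, which was not tested either. Of 26 Polycomb genes measured in wild type, 12 were higher in bone marrow, 5 as bounds, and 3 lower (median 0.88, and −0.06 in the Ezh2-null pair). Ezh2 read 33.5 in fetal liver and 52.9 in bone marrow, a difference under 2-fold. Its relative Ezh1, which predominates in non-dividing cells, was not well above background in fetal liver (8.05) and read 184 in bone marrow (at least 9.53-fold higher, and 1.75-fold lower), while a second probe read 58.1 and 75.4. The PRC2 core subunit gene Eed read 81.2 in fetal liver and 424 in bone marrow (5.22-fold higher) but was 2.37-fold lower in the Ezh2-null pair. The PRC1 reader gene Cbx6 read 136 in fetal liver and 816 in bone marrow (6.01-fold higher, and 4.02-fold higher). Of 12 DNA methylation genes 8 were higher and 1 lower in wild type (median 1.17; 4 higher and a median of 0.31 with normexp, 4 and 0.067 with the mean of all probes), against 1 and 4 of 14 in the Ezh2-null pair (median −0.15). The de novo methyltransferase gene Dnmt3b read 126 in fetal liver and 504 in bone marrow (4.01-fold higher, and 1.47-fold higher). The maintenance methyltransferase gene Dnmt1 read 27.8 in fetal liver and 65.1 in bone marrow (2.34-fold higher) but was 2.53-fold lower. Kmt2a, the MLL histone methyltransferase gene, stood outside both lists and read 504 in fetal liver and 19.8 in bone marrow (25.4-fold lower, and at least 6.65-fold lower). Of 39 Hox genes 9 were measured, with Hoxa6 (2.74-fold lower) the only one called.

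**Figure D5:**
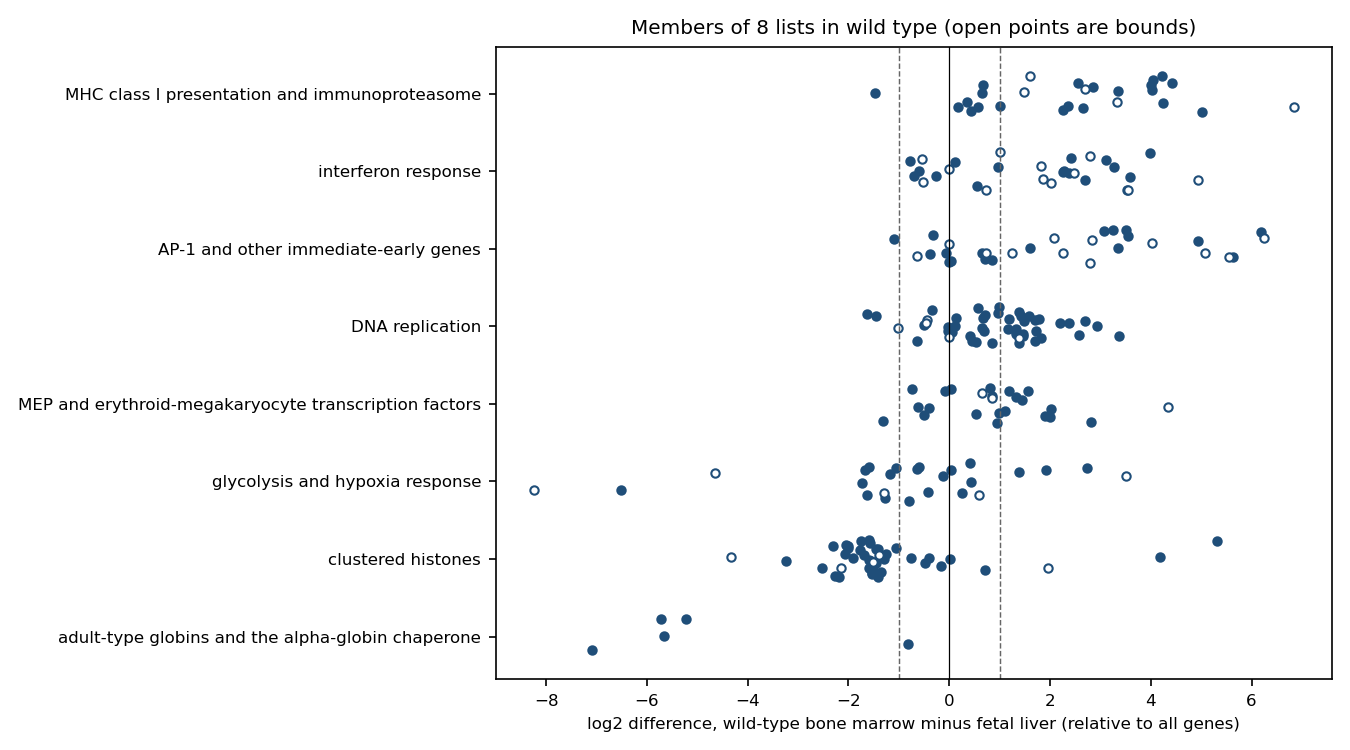
Log2 difference between bone marrow and fetal liver in wild type (x axis, relative to the median of all genes) of each measured member of 8 lists, with open points for bounds. The dashed lines mark 2-fold; 19 of 26 MHC class I genes lie to the right of them and 33 of 42 clustered histone genes to the left.

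The large housekeeping groups moved little in wild type. Cytosolic ribosomal protein genes had a median of −0.21 over 60 (5 higher, 1 lower), mitochondrial ribosomal protein genes 0.13 over 49 (12 and 1) and oxidative phosphorylation genes −0.16 over 98 (15 and 5). These medians changed sign under some scalings and stood at 0.55, 0.89 and 0.61 with spike-in scaling. The same groups stood at 0.70, 0.80 and 0.92 in the Ezh2-null pair. MYC and ribosome biogenesis genes had a median of 0.15 over 30 (8 higher, 3 lower), in which Myc itself read 102 in fetal liver and 419 in bone marrow (4.12-fold higher) and nucleolin (Ncl) read 822 in fetal liver and 347 in bone marrow (2.37-fold lower). Cholesterol genes were higher for 6 of 24 and lower for 2 (25% and 8.33%), near the shares of all genes (22.3% and 8.72%). Their largest rise measured on both arrays was that of Dhcr7 of the last synthesis step. Dhcr7 read 60.6 in fetal liver and 371 in bone marrow (6.13-fold higher, and 3.82-fold higher in the Ezh2-null pair). Autophagy genes were higher for 11 of 27 and lower for 2 (median 0.83). The mitophagy kinase gene Pink1 read 62.6 in fetal liver and 297 in bone marrow (4.74-fold higher, and 5.07-fold higher). Cell cycle inhibitors and p53 targets were higher for 8 of 20 and lower for none, BCL2 family genes for 4 and 1 of 15, stem and multipotent progenitor genes for 5 and 0 of 11, adhesion and homing genes for 8 and 3 of 20, and insulin and IGF signalling genes for 3 and 0 of 15. The shares higher among MYC (26.7%), BCL2 family (26.7%) and insulin and IGF genes (20%) also lay near the 22.3% of all genes. Of the 18 reference genes 7 were higher and 1 lower, B2m and Gapdh among them.

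Outside the lists, the genes measured on both arrays with the largest rise in bone marrow began with Sdsl, a serine dehydratase-like enzyme gene, which read 31.6 in fetal liver and 1642 in bone marrow (51.9-fold higher, and 58.9-fold higher in the Ezh2-null pair). The lipid transfer gene Stard10 read 32.4 in fetal liver and 708 in bone marrow (21.9-fold higher, and 36.3-fold higher). Lgals3bp, a secreted galectin ligand, read 37.95 in fetal liver and 803 in bone marrow (21.2-fold higher, and 27.3-fold higher). These rises recurred in the other pair, but Gramd4 (37.4-fold higher), filamin A (Flna, 26.7-fold higher) and Cyfip2 (23.2-fold higher) were under 2-fold there. Detected in bone marrow by a probe and in fetal liver by none were Aldh1a1, a retinaldehyde dehydrogenase gene, which was not well above background in fetal liver (12.2) and read 513 in bone marrow (at least 26.6-fold higher, and at least 31.6-fold higher), and the actin-severing gelsolin gene Gsn, which was not well above background in fetal liver (14.9) and read 564 in bone marrow (at least 29.2-fold higher, and 28.9-fold higher). The homeobox gene Hhex was not well above background in fetal liver (4.44) and read 519.8 in bone marrow (at least 26.9-fold higher, and 3.62-fold higher).

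On the fetal side, galectin-1 (Lgals1) read 35138 in fetal liver and 984 in bone marrow (35.7-fold lower, and 22.1-fold lower in the Ezh2-null pair). The melanocortin receptor accessory gene Mrap read 747 in fetal liver and 20.2 in bone marrow (36.99-fold lower, and 7.61-fold lower). The glycerol channel gene Aqp3 read 479 in fetal liver and 31.3 in bone marrow (15.3-fold lower, and 5.03-fold lower). The LIM-homeobox gene Lhx2, a factor of fetal liver development and of progenitor self-renewal, read 687 in fetal liver and was not well above background in bone marrow (14.9) (at least 41.4-fold lower, and 25.3-fold lower). All 4 were lower in both pairs. The tartrate-resistant phosphatase gene Acp5, known from osteoclasts and macrophages, read 3744 in fetal liver and 159 in bone marrow (23.5-fold lower, and 2.10-fold lower). Rgcc, a complement-induced cell cycle gene, read 904 in fetal liver and 71.7 in bone marrow (12.6-fold lower) but was 1.29-fold higher in the Ezh2-null pair.

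Among genes with several probes, the direction usually held over the gene. Of 433 genes called higher with another probe measured on both arrays, 84.5% went the same way by their other probes and 58.9% by at least 2-fold. Of 100 called lower, the shares were 78% and 33%. The genes called the same way in both pairs and by every probe, with the largest differences, included the phospholipid scramblase gene Plscr1, an interferon-induced gene that read 150.3 in fetal liver and 1633 in bone marrow (10.9-fold higher, and 34.5-fold higher), and on the lower side the chromatin remodeller gene Arid2, which read 159.9 in fetal liver and 26.9 in bone marrow (5.95-fold lower, and at least 9.04-fold lower). Of the 3304 genes called higher in wild type and compared in the Ezh2-null pair, 49.5% were called higher there, 10.2% lower and 40.3% neither, where 21.6% and 12.8% of all genes were called. Of the 1213 called lower, 28.7% were called lower in the Ezh2-null pair, 6.35% higher and 65.0% neither. The falls recurred for a smaller share than the rises, but fewer of all genes were called lower there (12.8%) than higher (21.6%). The difference between falls and rises was not tested.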

How the data were processed

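RNA of 4 MEP samples (1 array per source and genotype) was labelled with Cy3 from 250 ng of total RNA and hybridised to Agilent mouse arrays, per the labels' protocols. Per the file headers, the deposited intensity values had local background subtracted and spatial trends removed array by array, with no step between arrays (Feature Extraction 10.7.3.1, GE1_107_Sep09). The deposited flags of signal well above background are scores of 0 or 1 per spot. All 4 arrays share 1 slide and 1 scan, and no spot was saturated. No depth applies to arrays; with 1 array per group their number limits the precision.

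Control spots and outlier spots were left out. Spots of a probe were averaged as log2 intensity, and arrays were brought to a common 75th percentile, taken across the 12880 of 39418 probes that every array detected. Genes took their brightest probe (6401 genes had several) and differences were centred on the median of all genes compared, which multiplied bone marrow levels by 1.49. Printed bone marrow levels include that factor. Probes were named by accession (26157), symbol (3128) or older name (911) through a RefSeq gene table, and 9233 kept the name in the file. The 47 lists, the comparison and the rules were chosen with earlier results of these data known. Named genes were the up to 5 largest called members of a list in each direction, the largest differences outside the lists, those opposite in the Ezh2-null pair and those shared with it by every probe. Members named besides these were chosen after their values were seen. The calculation was tested on simulated data. Normexp used limma 3.58.1 in R 4.3.3; the rest used Python 3.11.15, numpy 2.4.6 and pandas 2.3.3, with figures by matplotlib 3.10.9. Probe coordinates are those of mm9 in the files and promoters are from RefSeq on GRCm38.p6.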

Additional observations from a re-analysis of the deposited data

Results flagged for a closer look

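In these results the source difference went one way in the wild-type pair of arrays and the other way in the Ezh2-null pair. With 1 array per group the difference between the pairs was not tested.

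The median of clustered histone genes was −1.54 log2 in wild type and 0.72 in the Ezh2-null pair. That of early lymphoid genes was −0.52 in wild type and 0.94 in the Ezh2-null pair, where 11 of 22 were higher. Vpreb1, a surrogate light chain gene, stood at −2.46 and 7.97 (both bounds, since it was detected on 1 array of each pair), and the histone gene H3c8 at −3.24 and 1.32. The sterol regulator gene Insig2 (−1.98 and 2.36, the second a bound) and the peroxisome gene Pex11g (−2.21 and 2.77) were lower in wild-type bone marrow and higher in Ezh2-null bone marrow.

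Other genes were higher in wild-type bone marrow and lower in Ezh2-null bone marrow than in the matching fetal liver. The stress-response genes Sesn2 (2.15 and −3.65, the second a bound) and Ddit4 (3.26 and −1.46) did so, as did the interferon-induced Bst2 (3.27 and −1.50). Proliferation-linked Myb stood at 1.56 and −2.38 and Mki67 at 1.32 and −2.78. The interleukin-33 receptor gene Il1rl1 (2.90 and −3.21) and the lamin A protease gene Zmpste24 (2.80 and −3.76) had this pattern too, all 4 of these values being bounds. Chromatin genes with this pattern were the histone demethylase gene Kdm1a (2.67 and −1.44), the PRC2 subunit gene Eed (2.38 and −1.25) and the DNA methyltransferase gene Dnmt1 (1.23 and −1.34).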

How the results depend on the processing

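The counts rest on the scaling and the background step, with 15 settings tried beside the one reported, of which the removal of a trend on probe G and C bases or on mean signal was chosen after seeing the data. Against 3428 genes higher and 1341 lower (71.9% of calls higher), normexp background correction gave 2044 and 285 (87.8%). Without centring, the same scaling gave 2014 and 4897 (29.1%), the 75th percentile of all probes gave 2329 lower (54.9%), and scaling on 2 spike-in probes gave 6196 and 333 (94.9%). Lower genes numbered 731 when genes had to be detected on both arrays and 778 with a pseudocount of 20. With no background filter 5850 were higher and 2659 lower. Under quantile normalization, centring on genes of both arrays, the mean of all probes, the probe nearest the 3′ end, the series table and the 3 trend removals, all 3 values stayed within 1.5 times (the share within 10 points).

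Of 46 list medians, 10 changed sign with the scaling left uncentred, 11 with spike-in scaling, 6 with no background filter and 0 to 4 under each other setting. Those at least 0.5 from 0 as reported were NF-kB genes (−0.014 uncentred) and, with spike-in scaling, early lymphoid genes (0.25), basophil, eosinophil and mast cell genes (0.070), glycolysis and hypoxia genes (0.12) and sort-against markers (0.13). The glycolysis median was also 0.12 with no background filter, under which undetected members enter. The rest lay nearer 0. Uncentred, they were red-cell membrane (−0.087), mitosis (−0.18), BCL2 family (−0.14), ATF4 (−0.27), adhesion (−0.22), other erythroid enzymes (−0.30), iron handling (−0.49), MYC (−0.21) and mitochondrial ribosomal protein genes (−0.45). With spike-in scaling they were imprinted (0.32), haem (0.63), granulocyte (0.57), macrophage (0.45), endothelial (0.33), cytosolic ribosomal protein (0.55) and oxidative phosphorylation genes (0.61). Spike-in scaling moves the median of all genes to 0.73.

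Of 34 lists with 4 or more members called in their leading direction, that count moved by over 1.5 times under at least 1 setting in 27. It moved in 17 with spike-in scaling, 15 uncentred, 10 with normexp, 10 for genes detected on both arrays, 9 with no background filter and 0 to 6 under each other setting. The 7 whose count moved under none were adult-type globins, MHC class I, red-cell membrane, chaperone, Polycomb, adhesion and defining MEP genes.

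Of 150 named genes called at 2-fold, none changed direction except by the probe nearest the 3′ end, where Alas1 stood at −1.34, Irf1 at −0.61 and Mki67 at −1.0 log2. With normexp 29 fell under 2-fold: Alas2, Bcl11a, Cd4, Dnmt1, Dntt, Eng, Gapdh, H2bc8, Hk2, Hmga1, Hoxa6, Hsp90aa1, Il3ra, Insig2, Isg15, Itga4, Itga6, Lyl1, Mki67, Ncl, Orc3, Pf4, Pfkl, Rfc1, Sesn2, Slc25a37, Slc40a1, Ube3a and Vpreb1. The mean of all probes took 15 under 2-fold, and each other setting took 0 to 9 with the exception of spike-in scaling (19).

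No paired analysis was possible because each group has 1 array, and leaving out a replicate is not possible for the same reason. The differences hold source, age, animals and sample handling at once, which cannot be told apart. Signals near background limit low genes, and bounds understate the change of genes detected on 1 array.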

Other observations

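The levels behind the opposite values of 4 genes were as follows, of which Il1rl1 is in the list of basophil, eosinophil and mast cell genes and the others are in none. Il1rl1 was not well above background in fetal liver (4.05) and read 144 in bone marrow in wild type, and 129.7 in fetal liver against 2.89, not well above background, in bone marrow of the Ezh2-null pair. Zmpste24 was not well above background in fetal liver (4.64) and read 134 in bone marrow, and 190.3 against 3.25, not well above background, in the Ezh2-null pair. Insig2 read 103 in fetal liver and 26.1 in bone marrow, and 4.84, not well above background, against 64.3 in the Ezh2-null pair. Pex11g read 256 in fetal liver and 55.2 in bone marrow, and 37.9 against 258 in the Ezh2-null pair.

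The fatty acid-binding protein gene Fabp5 was chosen after its value was seen, as the next largest fall after the globins and Lgals1 among genes with a symbol above 10000 in fetal liver. It read 26114 in fetal liver and 2587 in bone marrow (10.1-fold lower, and 2.32-fold lower in the Ezh2-null pair), and the probe of its near-identical copy Fabp5l2, which may bind the same RNA, read 15824 in fetal liver and 1588 in bone marrow.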
